A study of Mus musculus with 6 samples.

Results

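Krt9, Krt79, Krt80 and Krt84 are 4 keratin genes known from palm skin, gland and follicle ducts, cell junctions and nail, and they were followed in embryonic mouse handpads with and without the transcription factor Grhl3. They were picked by name from the 54 keratin genes in the annotation, among 34989 genes in all. The pick was made with their knockout and wild-type values already known, so the difference between the genotypes is given for them as a description. Whether they pass the fit across all genes is stated as a count beside its background and supports nothing. The handpad is the paddle-shaped end of the forelimb, and the study asks how epithelial migration and a non-adhesive periderm, a thin transient cover over the forming epidermis, serve the separation of digits. Polyadenylated RNA from total RNA was sequenced from 3 Grhl3KO (Grhl3-/-) and 3 WT handpad samples, all of the C57BL/6 strain at stage E14.5. The labels do not name the deleted part of Grhl3, a Cre or a pooling scheme. They do not say that replicates were separate embryos either, so the spread between samples, and every p-value, may be technical in part.

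Keratins form the intermediate filaments of epithelial cells, and each filament pairs a type I with a type II keratin. Type I genes lie, apart from Krt18, in a cluster on mouse chromosome 11, and type II genes in a cluster on chromosome 15. Krt9 is a type I keratin of the suprabasal layers of palm and sole skin. Krt79 is a type II keratin of the hair canal and the duct of the sebaceous gland. Krt80 is a type II keratin of many epithelia that lies near desmosomes, the plaques that hold neighbouring cells together. Krt84 is a type II keratin of the hard, hair and nail kind, known also from the papillae of the tongue.

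All 4 genes lie on the minus strand in mm10. Krt9 (ENSMUSG00000051617.3) spans chr11:100186781-100193246, with 8 exons and a coding length of 2229 bases. Krt79 (ENSMUSG00000061397.8) spans chr15:101929332-101940324, with 9 exons in the transcript counted and a coding length of 1593 bases. Krt80 (ENSMUSG00000037185.9) spans chr15:101347444-101370162, with 9 exons and a coding length of 1356 bases in the transcript counted. Krt84 (ENSMUSG00000044294.8) spans chr15:101525026-101532820, with 9 exons and a coding length of 1809 bases. The deposited tables hold 1 transcript for each gene, while the annotation lists 1, 4, 5 and 2 for Krt9, Krt79, Krt80 and Krt84, so isoforms could not be compared. For Krt80 the annotation has 3 coding transcripts, of which 1 was counted. Little of these transcripts can be mistaken for another keratin. Of the windows of 31 bases along each transcript, 0 of 2550 in Krt9, 12 of 2067 in Krt79, 4 of 3037 in Krt80 and 9 of 2540 in Krt84 also occur in a transcript of another gene in the tables.

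The 250 bases before the start of transcription are shown for the 3 genes with an entry in the RefSeq promoter table (GRCm38.p6), because these genes were higher together in embryos that lack a GRHL factor. They are printed on the minus strand, 5′ to 3′, and capitals mark matches to the TATA box motifs TATAAA and TATAA.
Krt9, chr11:100193247-100193496: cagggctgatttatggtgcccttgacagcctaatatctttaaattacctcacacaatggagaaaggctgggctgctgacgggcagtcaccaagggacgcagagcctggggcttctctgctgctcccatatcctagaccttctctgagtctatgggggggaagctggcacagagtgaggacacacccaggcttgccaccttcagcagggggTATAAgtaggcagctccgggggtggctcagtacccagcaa
Krt79, chr15:101940325-101940574: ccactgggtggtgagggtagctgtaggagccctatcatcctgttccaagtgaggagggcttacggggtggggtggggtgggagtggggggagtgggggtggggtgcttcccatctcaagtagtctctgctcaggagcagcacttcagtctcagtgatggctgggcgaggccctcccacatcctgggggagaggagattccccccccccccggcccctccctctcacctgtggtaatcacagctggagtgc
Krt84, chr15:101532821-101533070: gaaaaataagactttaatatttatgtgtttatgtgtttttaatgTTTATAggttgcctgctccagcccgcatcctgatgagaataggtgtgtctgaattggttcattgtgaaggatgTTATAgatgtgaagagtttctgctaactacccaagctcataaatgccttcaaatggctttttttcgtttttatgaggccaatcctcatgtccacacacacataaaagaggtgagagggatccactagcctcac

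Both strands were searched for AACCGGTT, the palindrome bound by GRHL factors, for AACNGGTT, which includes it, for TGANTCA, the AP-1 motif, and for the TATA motifs. None of the 3 windows held AACCGGTT, AACNGGTT or TGANTCA. Among 32851 promoter windows of the same length, 0.116% held AACCGGTT, 1.79% AACNGGTT and 6.75% TGANTCA. Krt9 had 1 match to TATAA, beginning at position -40 from the start, and Krt84 had 1 match to TATAAA and 2 to TATAA, all read on the opposite strand, with 1 of the 2 lying inside the TATAAA match. Krt79 had 0 matches to either. TATAAA occurred in 12.4% and TATAA in 22.8% of all windows, and TATAA was added after the sequences had been seen.

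The Grhl3KO libraries held 47642524 to 56037639 estimated counts and the WT libraries 38052692 to 48984542. Grhl3 itself averaged 2.97 ± 0.122 CPM in Grhl3KO and 26.2 ± 17.0 CPM in WT libraries (SD, n = 3 each; CPM is the count relative to the TMM-scaled library size), a log2 difference of -3.14 (SE 0.41, edgeR adjusted p of 0.0221). The autopod genes Hoxa13 and Hoxd13 and the forelimb gene Tbx5 averaged 64.3, 273 and 113 CPM in Grhl3KO and 64.5, 285 and 133 CPM in WT libraries, while the hindlimb genes Pitx1 and Tbx4 averaged 2.92 and 21.7 CPM in Grhl3KO and 2.98 and 22.6 CPM in WT. The WT libraries were not alike. All 3 Grhl3KO libraries had 3.43 to 4.49 CPM summed over 4 Y-linked genes, against 5.57 CPM in WT replicate 1 and 283 and 327 CPM in WT replicates 2 and 3. Weighted by counts, transcripts averaged 3347 to 3480 bases in Grhl3KO libraries, 3148 bases in WT replicate 1 and 3601 to 3625 bases in the other WT libraries.

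**Figure D1:**
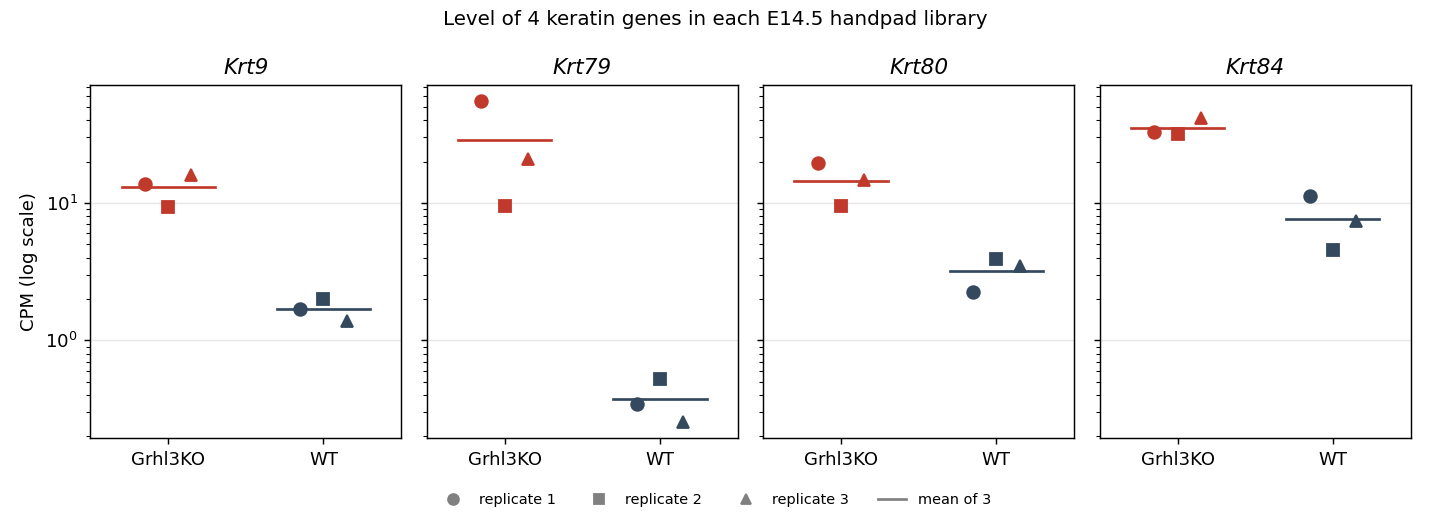
Level of each of the 4 keratins in every library, in CPM on a log axis, with Grhl3KO on the left and WT on the right of each panel; symbols are replicates and lines are means of 3. In all 4 panels the lowest Grhl3KO library lies above the highest WT library, and Krt79 has both the widest gap and the widest spread among Grhl3KO libraries.

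Krt9, the palm keratin, measured 13.6, 9.31 and 16.1 CPM in Grhl3KO replicates 1 to 3, from 672, 442 and 884 counts. In WT replicates 1 to 3 it measured 1.69, 1.99 and 1.39 CPM, from 64, 99 and 55 counts. The groups did not overlap, and the lowest Grhl3KO library was 4.69 times the highest WT library. The fitted log2 difference was 2.94 (SE 0.25), or 7.67-fold. Its usual type II partner in palm skin, Krt1, measured 459, 206 and 541 CPM in Grhl3KO and 308, 570 and 306 CPM in WT libraries, and these overlap. The log2 difference of Krt1 was 0.03 (SE 0.36), and it did not pass the test.

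Krt79, the duct keratin, had the lowest WT level and the greatest difference of the 4. It measured 55.2, 9.48 and 21.0 CPM in Grhl3KO replicates 1 to 3, from 2719, 450 and 1153 counts. In WT replicates 1 to 3 it measured 0.343, 0.522 and 0.253 CPM, from 13, 26 and 10 counts. No WT library came near the Grhl3KO range, and the lowest Grhl3KO library was 18.2 times the highest WT library. The fitted log2 difference was 6.22 (SE 0.72), or 74.5-fold, a ratio that rests on few counts in WT and on Grhl3KO replicate 1, without which the log2 difference was 5.32. The Grhl3KO libraries themselves differed by 5.82-fold, replicate 1 being the highest and replicate 2 the lowest, against 1.30-fold to 2.07-fold for the other 3 genes.

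Krt80, the keratin found near desmosomes, measured 19.6, 9.44 and 14.7 CPM in Grhl3KO replicates 1 to 3, from 963, 448 and 806 counts. In WT replicates 1 to 3 it measured 2.25, 3.91 and 3.47 CPM, from 85, 195 and 137 counts. The groups did not overlap, and the lowest Grhl3KO library was 2.41 times the highest WT library. The fitted log2 difference was 2.18 (SE 0.30), or 4.52-fold. The Grhl3KO libraries fell in the same order as for Krt79, with replicate 1 highest and replicate 2 lowest. That order is not particular to these keratins. The sum over 24 pan-epithelial genes, described below, also ran in it, at 1950, 1575 and 1792 CPM in Grhl3KO replicates 1 to 3.

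Krt84, the hard keratin, measured 32.6, 31.8 and 41.5 CPM in Grhl3KO replicates 1 to 3, from 1605, 1510 and 2281 counts. In WT replicates 1 to 3 it measured 11.2, 4.51 and 7.44 CPM, from 422, 225 and 294 counts. It was the most even of the 4 among Grhl3KO libraries and the least even among WT libraries, which differed by 2.47-fold with WT replicate 1 the highest. The groups did not overlap, and the lowest Grhl3KO library was 2.85 times the highest WT library. The fitted log2 difference was 2.20 (SE 0.29), or 4.60-fold.

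All 4 members passed the filter on low counts, and in the fit across 16938 genes all 4 were higher in Grhl3KO at a false discovery rate (FDR) under 0.05, where 0.348% of all genes were higher and 0.0827% lower. All 3 Grhl3KO libraries lay above all 3 WT libraries in 6.77% of all genes. These shares are background only, because the same values led to the choice of the 4 genes. The number of members past the threshold was 2 (Krt9 and Krt79) without Grhl3KO replicate 1 or without Grhl3KO replicate 3, 2 (Krt9 and Krt84) without WT replicate 2, and 1 (Krt9) without WT replicate 3. It was 4 without Grhl3KO replicate 2 or WT replicate 1. It was 2 (Krt9 and Krt84) with limma-voom and 1 (Krt9) with a term for Y-linked expression. Only WT replicate 1 has the low Y-linked level of the Grhl3KO libraries, so sex and genotype cannot be told apart except through that library. In the authors' deposited table the log2 fold changes are 2.94 for Krt9, 6.24 for Krt79, 2.18 for Krt80 and 2.20 for Krt84.

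Handpad samples mix epithelium with mesenchyme, so a larger share of epithelial cells and more of an RNA per cell cannot be told apart in these data. Summed over 24 pan-epithelial genes, the level was 1950, 1575 and 1792 CPM in Grhl3KO and 1088, 1702 and 1234 CPM in WT replicates 1 to 3, so WT replicate 2 lay within the Grhl3KO range. Of these 24 genes 0 were called by the quasi-likelihood test of edgeR, 9 were called higher by DESeq2 and 6 by the likelihood ratio test of edgeR, and 11 had a higher level at p under 0.05 with no adjustment (3.81% of all genes). The list median was a log2 difference of 0.35. Taken per 1000 pan-epithelial counts, Krt9 stood at 7.29 ± 1.55 in Grhl3KO and 1.28 ± 0.235 in WT (SD, n = 3 each). Krt79 stood at 15.3 ± 11.6 in Grhl3KO and 0.276 ± 0.0613 in WT on that scale. Krt80 stood at 8.07 ± 2.02 in Grhl3KO and 2.39 ± 0.382 in WT, and Krt84 at 20.0 ± 3.23 in Grhl3KO and 6.31 ± 3.80 in WT. The groups stayed apart for all 4 genes, at log2 ratios of the means of 2.51, 5.80, 1.75 and 1.67 for Krt9, Krt79, Krt80 and Krt84. Krt84 came closest to overlap, at 16.7 in Grhl3KO replicate 1 against 10.2 in WT replicate 1.

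**Figure D2:**
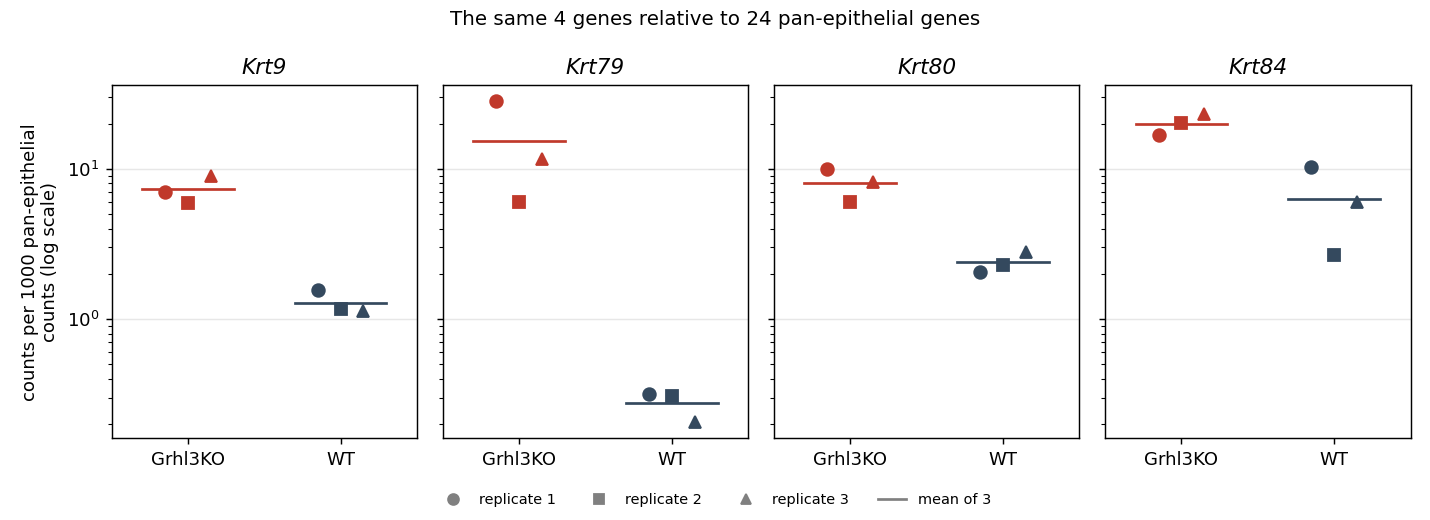
The same 4 keratins as counts per 1000 counts of the 24 pan-epithelial genes, on a log axis, with Grhl3KO left of WT; symbols are replicates and lines are means of 3. The groups do not overlap in any panel, and the WT values of Krt80 lie closer together than in CPM while those of Krt84 spread further.

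Levels were compared between the 4 genes in TPM, a measure of transcript number that corrects for length. In Grhl3KO libraries Krt79 averaged 17.2 ± 14.8 TPM, Krt84 16.3 ± 1.95, Krt80 10.7 ± 3.94 and Krt9 5.99 ± 1.48 (SD, n = 3). Krt79 ranged from 5.68 to 33.8 TPM there and overlapped with each of the others, and it was the highest of the 4 in Grhl3KO replicate 1 alone. In WT libraries the order was Krt84 at 3.64 ± 1.14 TPM, Krt80 at 2.56 ± 0.961, Krt9 at 0.825 ± 0.195 and Krt79 at 0.236 ± 0.104 (SD, n = 3). Krt84 and Krt80 overlapped in WT, at 2.40 to 4.64 and 1.48 to 3.31 TPM, while Krt9 (0.700 to 1.05) and Krt79 (0.170 to 0.356) lay apart from them and from each other. By mean TPM among the 54 keratin genes, Krt79 ranked 12 in Grhl3KO and 28 in WT, Krt84 ranked 13 in Grhl3KO and 15 in WT, Krt80 ranked 17 in Grhl3KO and 16 in WT, and Krt9 ranked 21 in Grhl3KO and 22 in WT. The 4 genes together made up 1.95%, 1.44% and 1.51% of all keratin TPM in Grhl3KO and 0.592%, 0.318% and 0.562% in WT replicates 1 to 3. The highest keratin in both genotypes was Krt5, a basal keratin, at 831 TPM in Grhl3KO and 460 TPM in WT.

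Among the 29 other keratin genes that could be tested, 9 rose in Grhl3KO and 0 fell (edgeR), at a median log2 difference of 0.95, where that of all genes was -0.004. With no adjustment, 18 passed p under 0.05 as higher and 2 as lower, against 3.81% and 3.41% of all genes. DESeq2 called 15 higher and 1 lower, against 1.25% and 0.514% of all genes. The likelihood ratio test called 14 higher and 1 lower, against 1.09% and 0.443% of all genes, and the lower one was Krt4 in both. Krt8, a keratin of simple epithelia, rose by a log2 difference of 2.99 (SE 0.20) and its partner Krt18 by 1.87 (SE 0.20). Krt75 of the hair follicle rose by 3.44 (SE 0.28). The wound and stress keratins Krt17, Krt6a and Krt16 rose by 3.31 (SE 0.30), 3.91 (SE 0.36) and 5.85 (SE 0.58), and each has close relatives among the keratins, with which sharing of reads was not tested. The number of other keratins that rose was 3 without WT replicate 3 and 5 without Grhl3KO replicate 1, and Krt4 fell without WT replicate 1 (adjusted p = 0.0172, edgeR). Of the 54 keratin genes, 21 did not pass the filter on low counts.

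**Figure D3:**
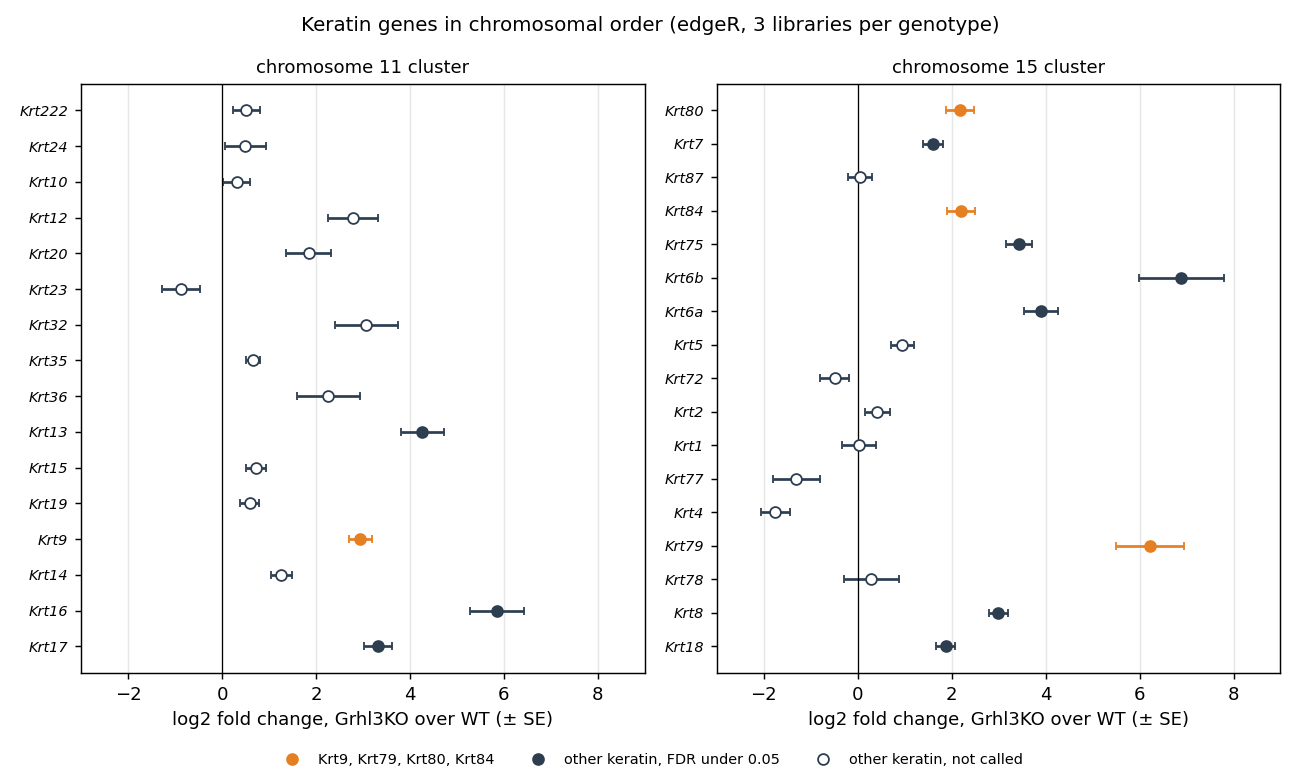
Log2 fold change of Grhl3KO over WT with its SE for the 33 keratin genes tested, in chromosomal order within the clusters on chromosomes 11 and 15; filled points passed an FDR under 0.05 in edgeR and the 4 genes described here are in orange. Krt79, at 6.22, stands between Krt4 at -1.75 and Krt78 at 0.29, while Krt16 and Krt17, and Krt6b and Krt6a, are neighbours that are both above 3 on this scale.

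Of the 2 nearest coding genes on each side of each member, 11 could be tested, and 3 of them rose: Krt16, Krt8 and Krt7. Of all genes 0.348% rose (edgeR), but most of the 11 are keratins. The 3 were already counted above among the 9 of 29 other keratins that rose, so they are not a separate result. Krt79 lies 4597 bases from Krt4 and 5677 bases from Krt78. Krt4, a mucosal and periderm keratin, measured 16.6 ± 5.06 CPM in Grhl3KO and 55.8 ± 24.3 CPM in WT (SD, n = 3), a log2 difference of -1.75 (adjusted p = 0.0785, edgeR). Krt78 measured 0.210 ± 0.0895 CPM in Grhl3KO and 0.170 ± 0.104 CPM in WT. Krt9 lies 9916 bases from Krt14, a basal keratin with a log2 difference of 1.26 (adjusted p = 0.0705, edgeR), and 38116 bases from Krt19, at 0.59 (adjusted p = 0.47). Krt80 lies 40881 bases from Krt7, a simple epithelial keratin that rose by 1.59 (SE 0.21, adjusted p = 0.0221, edgeR), while 6030408B16Rik on its other side had a log2 difference of -0.07. Krt84 lies between Krt83 and Krt82, hard keratins of the hair that averaged 0.163 and 0.0128 CPM in Grhl3KO and 0.00881 and 0.0218 CPM in WT, too low to be tested.

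Genes of the structures that the 4 keratins are named for were counted with the members themselves left out. The lists here and below were chosen with earlier results of these data known, so their counts are descriptions. Of all genes tested, 0.348% were higher and 0.0827% lower (edgeR). In the duct and infundibulum list, the upper part of the hair follicle and its gland duct, 6 of 15 genes tested rose and 0 fell (edgeR), at a median log2 difference of 2.08. Those that rose were Krt17, Krt75, Krt6a, Krt16, Klk7, a protease of cornified skin, and Plet1, a surface protein of the follicle junction. Klk7 measured 55.2, 18.3 and 32.2 CPM in Grhl3KO and 0.317, 0.482 and 0.557 CPM in WT replicates 1 to 3. Its Grhl3KO libraries ran in the order of Krt79, which is also the order of the summed pan-epithelial genes. Krt17, Krt6a and Krt16 are also known from wounded epidermis. With Krt75, they were already counted above among the other keratins that rose, so they are not a separate result. DESeq2 and the likelihood ratio test each called 9 of the 15, adding Cst6, Klk10 and Teddm3. Chosen after their values were seen, Lrig1, a stem cell marker of the junction, and Gata6, a factor of the duct lineage, had log2 differences of 0.02 (SE 0.10) and -0.02 (SE 0.30). Krt77, a type II keratin known in human from sweat gland ducts, lay the other way, at 21.4, 4.19 and 11.2 CPM in Grhl3KO and 22.6, 43.1 and 25.3 CPM in WT. Its groups did not overlap, and its log2 difference was -1.31 (SE 0.50, adjusted p = 0.572, edgeR). With scaling on the pan-epithelial list it was -1.74 (adjusted p = 2.41e-07, edgeR). That scaling shifted the all-gene median to -0.447 and called 265 genes lower. Among the other alternatives the lowest adjusted p of Krt77 was 0.201, without WT replicate 1 (edgeR). With no adjustment, 10 genes of the list passed p under 0.05 as higher and 1, Krt77, as lower. Defb6, a defensin of the upper follicle also named after its values were seen, had 0 counts in all 6 libraries. The number that rose was 3 without WT replicate 3.

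None of 14 sebaceous gland genes tested was called by edgeR or had an unadjusted p under 0.05, and neither DESeq2 nor the likelihood ratio test called any. Scd1, a fatty acid desaturase abundant in sebocytes, averaged 36.6 ± 3.45 CPM in Grhl3KO and 33.1 ± 4.61 CPM in WT (SD, n = 3). The median log2 difference of the list was -0.07.

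In the palm and ventral limb list 3 of 13 genes rose and 0 fell (edgeR), and the 3 were Krt16, Krt6a and Krt6b. These 3 keratins stand also among wound keratins and were already counted among the other keratins that rose. Without WT replicate 3, 0 of the list rose. The other 10 had log2 differences between -0.06 and 0.42, and none was called. The highest of these was Krt2, a keratin of the upper epidermis, at 3.11 ± 0.665 CPM in Grhl3KO and 2.32 ± 0.580 CPM in WT (SD, n = 3). Krt10, the partner of Krt1, was named after its values were seen and had a log2 difference of 0.31 (SE 0.28, adjusted p = 0.944, edgeR). Likewise named after their values were seen, En1, which sets ventral identity of the limb epithelium, averaged 12.7 ± 3.25 CPM in Grhl3KO and 10.3 ± 2.65 CPM in WT libraries (SD, n = 3), and Dkk1, a Wnt inhibitor of palm and sole dermis, measured 20.1, 22.0 and 18.8 CPM in Grhl3KO and 24.5, 17.9 and 16.9 CPM in WT. Both overlapped between the groups.

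Most hard keratins had few counts. Of 15 hair and nail keratin genes in the annotation, 5 passed the filter, Krt84 among them. Of the other 4 none was called by edgeR, while 3 passed p under 0.05 with no adjustment. DESeq2 called 2, Krt32 and Krt35, and the likelihood ratio test called 1, Krt32. Below the filter, Krt31, Krt34, Krt83 and Krt86 had every Grhl3KO library above every WT library. They averaged 0.146 to 0.242 CPM in Grhl3KO and 0.00881 to 0.0324 CPM in WT, from few counts. Krt83, for example, had 2, 10 and 13 counts in Grhl3KO and 1, 0 and 0 in WT replicates 1 to 3. Krt33a, Krt33b, Krt39, Krt40, Krt81 and Krt82 did not separate. These genes below the filter were named after their values were seen. Of tested genes 6.77% separate that way, a share not worked out for genes below the filter. Krt36, a type I hard keratin, measured 13.4, 10.3 and 17.9 CPM in Grhl3KO and 6.00, 0.482 and 2.28 CPM in WT replicates 1 to 3, a log2 difference of 2.27 (SE 0.67, adjusted p = 0.379, edgeR). The 6 libraries stood in the same order for Krt36 as for Krt84, with Grhl3KO replicate 3 highest and WT replicate 2 lowest. Krt36 passed the threshold without WT replicate 1 (adjusted p = 0.0276, edgeR), a fit in which every WT library and no Grhl3KO library had Y-linked expression at the higher level. Its log2 difference was 1.12 with the Y-linked term (adjusted p = 0.457, edgeR) and 1.21 without WT replicates 2 and 3 together (adjusted p = 0.194). Krt32 passed without Grhl3KO replicate 2 (adjusted p = 0.0282, edgeR), with DESeq2 (adjusted p = 0.00253) and with the likelihood ratio test (adjusted p = 0.00127). With scaling on the pan-epithelial list, which shifted the all-gene median to -0.447, both Krt36 and Krt32 passed (adjusted p = 3.64e-05 and 0.000434, edgeR). Krt35, an early keratin of the hair cortex, averaged 9.01 ± 0.429 CPM in Grhl3KO and 5.70 ± 0.744 CPM in WT (SD, n = 3; log2 difference 0.66, adjusted p = 0.183, edgeR). Krt32, a cuticle keratin, averaged 1.02 ± 0.726 CPM in Grhl3KO and 0.122 ± 0.0393 CPM in WT. Among 15 regulators of hair and nail, 0 were called by edgeR, at a median log2 difference of -0.03. With no adjustment, 5 were higher and 1 lower at p under 0.05 (edgeR). The lower one was Gata3, at a log2 difference of -0.29, named after its values were seen. DESeq2 and the likelihood ratio test each called 2 higher, Wnt10b and Fzd6. The regulators that were called numbered 2 without WT replicate 1 and also 2 with the Y-linked term. Hoxc13, a factor that controls hard keratins, measured 9.66, 9.22 and 10.1 CPM in Grhl3KO and 6.79, 8.83 and 5.57 CPM in WT (log2 difference 0.45, adjusted p = 0.629, edgeR), and was named after its values were seen.

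In the desmosome list, the structure near which Krt80 lies, 2 of 18 genes rose and 0 fell (edgeR), at a median log2 difference of 0.45. Cdsn, an adhesion protein of cornified cells, averaged 18.8 ± 9.54 CPM in Grhl3KO and 0.151 ± 0.0908 CPM in WT, and Dsg4, a desmosomal cadherin of hair and upper epidermis, 0.567 ± 0.150 CPM in Grhl3KO and 0.0373 ± 0.0198 CPM in WT (SD, n = 3). The plaque protein Dsp, which anchors keratins, measured 548, 341 and 509 CPM in Grhl3KO and 140, 446 and 244 CPM in WT, and these overlap (named after its values were seen). DESeq2 and the likelihood ratio test each called 4. The number that rose was 1 without Grhl3KO replicate 1, Grhl3KO replicate 3, WT replicate 2 or WT replicate 3, at a minimum count of 50 and with the replicate block. It was 3 without WT replicate 1 or with no filter, and 4 with the Y-linked term. With scaling on the pan-epithelial list 4 rose and 1 fell. In the spinous and granular list, to which Krt80 belongs, 0 of the 18 other genes were called by edgeR, with 3 higher and 2 lower at p under 0.05 with no adjustment. DESeq2 called 1 of them higher and 1 lower, and the likelihood ratio test 1 higher. Ivl, a cornified envelope protein, averaged 3.12 ± 1.58 CPM in Grhl3KO and 0.506 ± 0.179 CPM in WT (SD, n = 3; adjusted p = 0.0773, edgeR). The list median was 0.05, and 2 genes rose without Grhl3KO replicate 2.

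**Figure D4:**
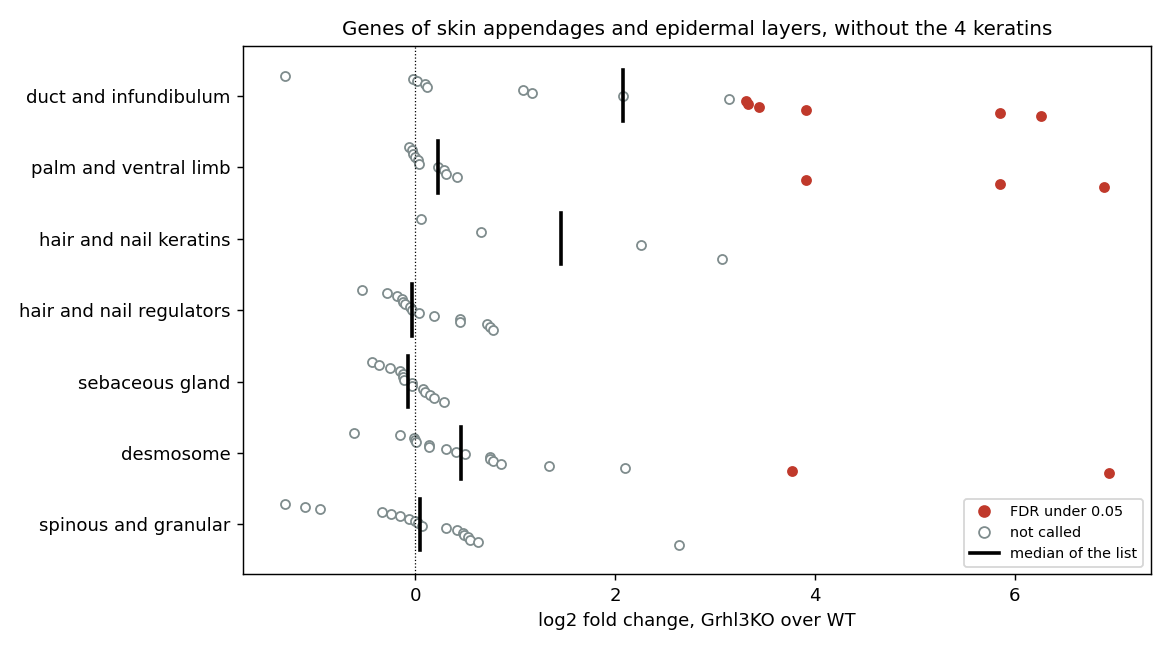
Log2 fold change of Grhl3KO over WT for the tested genes of 7 lists, with Krt9, Krt79, Krt80 and Krt84 left out; red points passed an FDR under 0.05 in edgeR and the bar is the list median. The duct and infundibulum list has the highest median, at 2.08, and the sebaceous gland list has the lowest, at -0.07. The lists were chosen with earlier results of these data known, and some share genes.

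The genes most like each keratin over the 6 libraries were taken by Pearson's r of log2 CPM among 15911 other genes. Both genotypes enter this measure and the points share their libraries, so any gene that separates the genotypes scores high, and r is a description. Krt79 was most like Edn1 (r = 0.999), a peptide hormone, F2rl1 (0.997), a protease receptor, and Atp6v1c2 (0.996), a proton pump subunit, followed by Junb and Rhou. Krt80 was most like Krt7 (0.999), its neighbour, then Cdkn2b, a cell cycle inhibitor, and Spink5, a protease inhibitor of the epidermis (0.995 and 0.994), followed by Htr1d and Wnt10a. Krt9 was most like Dsg4 (0.998), then Myh11, a smooth muscle myosin, and Nat8l (both 0.996), followed by Ano10 and Cnksr3. Krt84 was most like Fuca1 (0.994) and Sdf4 (0.993), neither of which passed the test, with log2 differences of 0.45 and 0.19 (adjusted p = 0.161 and 0.706, edgeR). Dglucy, Med22 and Cpne2 came next. Among the 4 keratins themselves r was highest between Krt79 and Krt9 (0.982) and lowest between Krt80 and Krt84 (0.833).

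Markers of other cell types were summed in the same libraries. Cartilage genes summed to 2292 to 3701 CPM in Grhl3KO and 3688 to 5554 CPM in WT, mesenchyme genes to 8458 to 12060 CPM in Grhl3KO and 8350 to 11440 CPM in WT, and muscle genes to 357 to 605 CPM in Grhl3KO and 373 to 663 CPM in WT. Red cell genes summed to 6110 to 10700 CPM in Grhl3KO and 5138 to 8267 CPM in WT, and macrophage genes to 110 to 160 CPM in Grhl3KO and 104 to 140 CPM in WT. Endothelial genes summed to 378 to 408 CPM in Grhl3KO and 323 to 356 CPM in WT, and Schwann cell and melanoblast genes to 133 to 156 CPM in Grhl3KO and 114 to 141 CPM in WT. Of the Merkel cell list 2 of 5 tested genes rose, Krt8 and Krt18, which periderm also expresses. Liver genes, 6 in number, summed to 41.9, 89.3 and 12.2 CPM in Grhl3KO and 9.03, 10.5 and 7.74 CPM in WT replicates 1 to 3, with Alb at 12.6, 30.6 and 1.80 CPM in Grhl3KO and 1.37, 1.20 and 1.09 CPM in WT. Liver genes summed highest in Grhl3KO replicate 2. Of the 6, the quasi-likelihood test called 0, DESeq2 called 2 higher and the likelihood ratio test 3. With no adjustment, 5 were higher at p under 0.05, against 3.81% of all genes. Of the periderm list, 7 of 15 genes rose and 1 fell (edgeR), against 0.348% and 0.0827% of all genes. The 1 that fell was Grhl3, the gene knocked out. Those that rose were Cldn6 and the keratins Krt6a, Krt8, Krt13, Krt17, Krt18 and Krt7. These keratins were already counted above among the other keratins that rose, so they are not a separate result. DESeq2 called 9 higher and 2 lower, and the likelihood ratio test 8 higher and 2 lower, with Krt4 lower in both. The summed level of the list was 1740, 980 and 1401 CPM in Grhl3KO and 442, 747 and 501 CPM in WT. The basal epidermis list summed to 3769, 2859 and 3734 CPM in Grhl3KO and 1607, 2613 and 1642 CPM in WT, with 0 of 13 genes called by the quasi-likelihood test, 4 called higher by DESeq2, and 6 higher at p under 0.05 with no adjustment. The part of these markers in the levels of the 4 keratins was not tested.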

How the data were processed

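Handpad RNA was sequenced from 3 Grhl3KO and 3 WT samples with a stranded mRNA kit, per the labels. The deposited tables give kallisto estimated counts, effective lengths and TPM for 111462 transcripts, on build mm10 per the submitters' processing notes; the sources used here name no kallisto version or transcript set. The authors' deposited comparison table holds log2 fold changes, log2 CPM, a likelihood ratio score and p-values for 941 genes, made with edgeR per the labels.

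Transcripts were matched to GENCODE M21 (110203 matched, 1259 unmatched). Estimated counts were summed per gene and rounded. TMM scaling, a filter (filterByExpr, minimum count 10, minimum total 15) and the quasi-likelihood test of edgeR 4.0.16 in R 4.3.3 were used, with genotype as the only term, Benjamini-Hochberg adjustment over 16938 genes and an FDR threshold of 0.05. SE in the quasi-likelihood fits is the absolute log2 fold change divided by the square root of F. DESeq2 1.42.0, limma-voom (limma 3.58.1), other scalings, filters and left-out libraries were alternatives. The script was tested on simulated data. Library size limits precision, and without molecular identifiers reads may repeat a molecule.

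The members and gene lists were chosen with earlier results of these data known. Genes named are the members, Grhl3, the 5 genes most like each member, the 2 nearest coding genes on each side, up to 4 genes with the smallest p per list and up to 6 other called keratins; Krt1, Krt5, the limb genes and those marked in the text were named after their values were seen.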

Additional observations from a re-analysis of the deposited data

How the results depend on the processing

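The log2 differences of the 4 keratins kept their sign under every alternative run. With each library left out in turn they ran from 2.76 to 3.13 for Krt9, 5.32 to 6.63 for Krt79, 1.91 to 2.41 for Krt80 and 1.93 to 2.57 for Krt84. Scaling on the pan-epithelial list shifted the all-gene median to -0.447 and lowered all 4, to 2.51 for Krt9, 5.78 for Krt79, 1.75 for Krt80 and 1.68 for Krt84. On the log2(TPM + 1) scale Krt9 was 1.92, Krt79 3.55, Krt80 1.71 and Krt84 1.925. With a term for Y-linked expression Krt80 was 2.71 and Krt84 1.64, and without WT replicates 2 and 3 together, chosen after seeing the data, they were 2.70 and 1.67. That fit leaves 1 WT library, assumed to vary like the Grhl3KO libraries. All 4 passed the threshold except with limma-voom (Krt9 and Krt84 passed), the replicate block (Krt80 did not), the Y-linked term (only Krt9 passed), without WT replicates 2 and 3 together (Krt9 and Krt84 passed) and in 4 of the 6 fits with 1 library left out. At an FDR under 0.01 only Krt9 passed. Each member has 1 transcript in the tables, so the alternative of its main transcript changes nothing.

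Of all genes, 59 rose and 14 fell. The counts that rose and fell were 97 and 265 with pan-epithelial scaling, 90 and 28 with no filter, 212 and 87 with DESeq2, 185 and 75 with the likelihood ratio test, and 17 and 2 at an FDR under 0.01. The number that fell was 7 at a minimum count of 50, 4 with effective length offsets, 4 with limma-voom, 23 with the Y-linked term, 37 without WT replicates 2 and 3 together and 25 at an FDR under 0.1. With 1 library left out, 9 to 136 rose and 1 to 70 fell. Other keratins that rose numbered 15 with DESeq2, 14 with the likelihood ratio test, 3 without WT replicates 2 and 3 together and 3 to 10 with 1 library left out. Those that fell numbered 2 with pan-epithelial scaling and 1 with no filter, DESeq2, the likelihood ratio test or an FDR under 0.1, and 0 to 1 with 1 library left out. Duct and infundibulum genes that rose numbered 3 without WT replicates 2 and 3 together and 3 to 8 with 1 library left out, and 1 fell with pan-epithelial scaling. Palm and ventral limb genes that rose numbered 1 with limma-voom, 0 without WT replicates 2 and 3 together and 0 to 3 with 1 library left out. Except where fewer samples or other thresholds set the count, the cause was not tested.

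Replicate numbers are not said to pair samples, and deviations of same-numbered libraries correlated at -0.244, -0.092 and -0.162. With the replicate number as a block, 42 genes rose and 5 fell, 8 other keratins rose, and the log2 differences were 2.91 for Krt9, 5.88 for Krt79, 2.14 for Krt80 and 2.28 for Krt84.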
